A study of Drosophila melanogaster with 8 samples.

Results

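Of 38 listed genes for the start of DNA replication and for the work of the replication fork, 34 had a probe set on 8 Affymetrix Drosophila arrays of Kc cells, and 7 of these 34 lie on the X chromosome and 27 on autosomes. The members are a list of gene names drawn up by function, with earlier results of these data known, and each gene was represented by the probe set with the highest mean over the 8 arrays. They are 34 of the 11983 genes tested in the whole series. Mcm7, Orc6, geminin and RnrS were not analysed here, since none of the probe sets with a single gene symbol carried those names. RpA-70, the large subunit of the single-strand binding protein RPA, was found under the symbol RPA1. All 34 members lay above the median level of all genes (5.24 on the log2 scale), with values from 6.80 to 13.10 on single arrays.

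Kc is a cultured line derived from Drosophila melanogaster embryos and behaves as female, since it makes SXL. SXL, the switch protein of female fate, blocks production of MSL2. MSL2 is the limiting subunit of the MSL complex, which raises transcription of X-linked genes in males. The cells received double-stranded RNA against GFP (3 control arrays), against Sxl (3 arrays), or against Sxl together with Msl2 (2 arrays). Every array, controls included, therefore came from cells given double-stranded RNA, and all came from a single cell line. The length of treatment was not in the labels, and these do not say that replicates were separate cultures. p-values therefore refer to the spread among these arrays alone, part or all of which may be technical. GEO's labels tie each knockdown array to a GFP array as its background control. In control set 1, GFP replicate 1 was the control of Sxl RNAi replicate 2 and of double knockdown replicate 1. In control set 2, GFP replicate 2 was the control of Sxl RNAi replicate 1 alone. In control set 3, GFP replicate 3 was the control of Sxl RNAi replicate 3 and of double knockdown replicate 2. Double knockdown here stands for the arrays that the labels give as Sxl and Msl2 RNAi.

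Eukaryotic DNA is replicated from origins that are prepared before S phase. The origin recognition complex (ORC), Cdc6 and Cdt1 load the ring-shaped MCM helicase onto DNA, and Cdc7 kinase, Cdc45 and the GINS complex then turn it into the moving helicase at the fork. There PCNA, its loader RFC, RPA and enzymes that join new strands act together, while CAF-1 places histones on the copied DNA. In Drosophila, many of these genes are transcribed under E2F control as cells enter S phase. In total RNA from a culture, a larger share of cells that express a gene and more RNA per cell cannot be told apart.

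Values are log2 RMA values, summaries of the probes of a set after normalization across arrays. A level of a gene is relative to the other genes on the array, and levels were not compared between genes. A gene is said to have risen or fallen where its limma adjusted p, taken over all 11983 genes in a model with treatment and control set, was under 0.05. The targeted genes were checked first. Sxl lay at 6.99 to 7.20 in the controls and at 6.09 to 6.93 after Sxl RNAi (log2 change -0.51 ± 0.17 SE, adjusted p = 0.0935). On the arrays labelled Sxl and Msl2 RNAi it lay at 6.65 (replicate 1) and 7.37 (replicate 2), so replicate 2 was above every control and its label was not borne out by Sxl. msl-2 rose from 4.32 to 4.51 in the controls to 5.33 to 6.19 after Sxl RNAi (1.28 ± 0.13 SE, adjusted p = 0.000551), and lay at 4.13 and 4.16 on the arrays labelled Sxl and Msl2 RNAi. The msl-2 controls were already below 5.24, the median level, so these values show the lack of a rise rather than a knockdown. In the double knockdown against GFP, the fitted changes were -0.16 for msl-2 (adjusted p = 0.684) and -0.05 for Sxl (adjusted p = 0.941). Kc cells are known as hemocyte-like, and 9 of 10 hemocyte markers were above 5.24, with NimC1 below it. After Sxl RNAi Pxn rose by 1.39 and He, Glt and Ppn fell by 1.02, 0.75 and 1.33 among these 10. The log2 of their summed level was 13.13 to 13.85 in the GFP arrays, 12.67 to 13.94 after Sxl RNAi and 13.08 to 13.14 in the double knockdown, so the groups overlapped. Above the same level were 2 of 3 neuron markers (elav, which is X-linked and rose by 0.66, and brp), 1 of 2 muscle markers, 2 of 3 germ line markers and 0 of 4 fat body markers. The part of these cell markers in the changes of the replication genes was not tested. Between the arrays of control set 2 the correlation over probe sets was 0.996, and between these and the other arrays it was 0.985 to 0.989, whereas it was 0.992 to 0.997 among the others.

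After Sxl RNAi, 15 of the 34 replication genes rose against GFP and 0 fell. Across all genes tested, 5.98% rose and 4.35% fell. Of the 5991 genes above the level of 5.24, where all members lie, 678 rose and 473 fell. All 34 fitted changes were above 0, from 0.00 to 1.09 on the log2 scale, with a median of 0.30 (1.23-fold) against a median of -0.02 over the 5991 genes above the level of 5.24. The genes that rose were Orc1 and Orc4 of ORC, dup, all 5 measured MCM subunits, Cdc45, Psf3, Sld5, PCNA, RpA-70, RPA3 and Caf1-180. All Sxl RNAi arrays lay above all GFP arrays for 14 of 34 members, against 5.72% of all genes. The calls rest on the control sets as a term in the model. Without that term 0 members were called, although the changes had the same size, and the lowest adjusted p of a member was then 0.0508. Of the 15 genes, 8 stayed called when any of the 8 arrays was left out (Orc1, Mcm3, dpa, Mcm6, Cdc45, Psf3, RpA-70 and Caf1-180), and 8 members in all were called on dropping Sxl RNAi replicate 2 or 3 or GFP replicate 1. On dropping GFP replicate 3, 10 were called.

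In the double knockdown, 11 of the 34 rose against GFP and 0 fell, where 2.19% of all genes rose and 1.6% fell. All 34 fitted changes were again above 0 (0.05 to 1.28, median 0.28). Both double knockdown arrays lay above all GFP arrays for 27 of 34 members, beside 11.7% of all genes. The 11 genes that rose were Orc1, dup, Mcm2, Mcm3, dpa, Mcm5, Mcm6, Cdc45, Sld5, RpA-70 and Caf1-180, and each had also risen after Sxl RNAi alone. Across all genes, 1.72% rose in both comparisons, which share the GFP arrays, as did 202 of the 5991 genes above 5.24. With only 2 double knockdown arrays, the calls depended on single arrays. Without double knockdown replicate 1, 0 members were called. Without replicate 2, the array on which Sxl was not lowered, 1 was called (Caf1-180). Dropping GFP replicate 1 left 1 call, dropping GFP replicate 3 left 3, and dropping Sxl RNAi replicate 3 left 6. Without the control set term 0 were called.

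**Figure D1:**
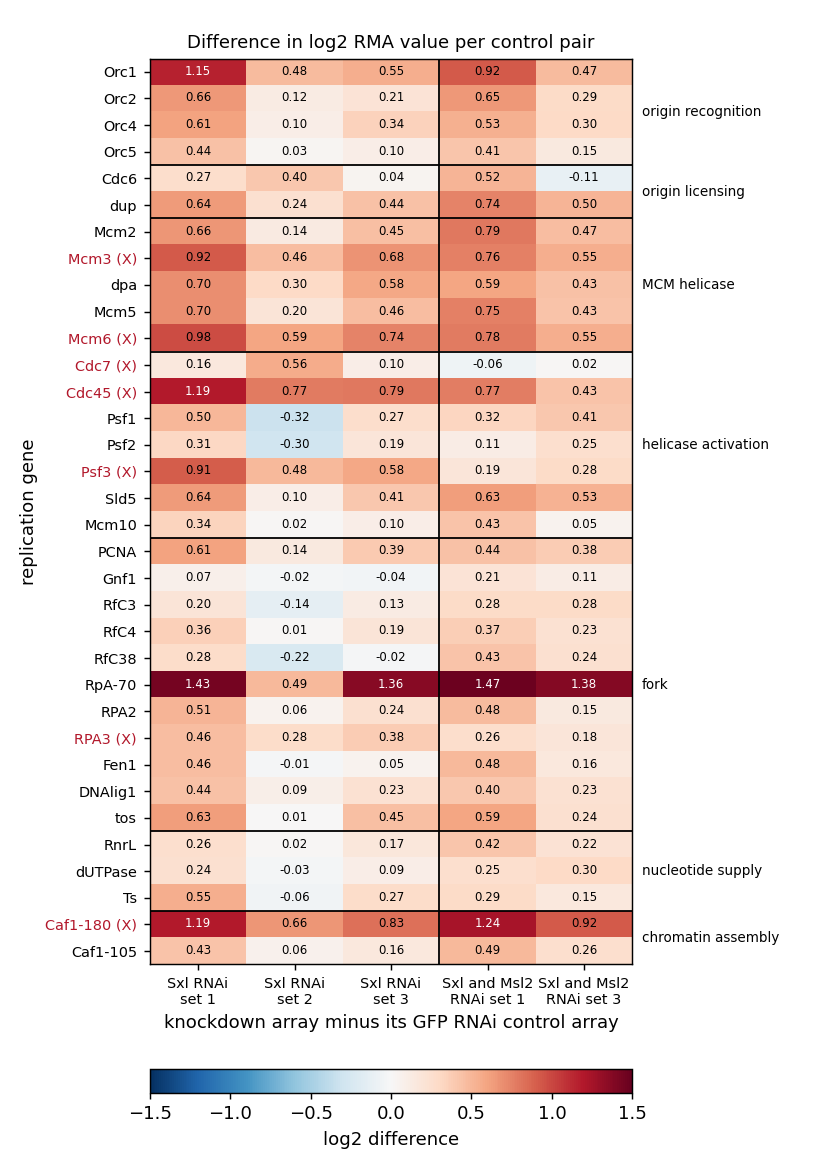
Differences in log2 RMA value between each knockdown array and its own GFP control array (columns) for the 34 replication genes (rows, grouped by role; names of X-linked genes in red). RpA-70 and Caf1-180 have the darkest rows, and the second column, control set 2, is paler than its neighbours for most autosomal genes.

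The 4 measured subunits of ORC, which binds origins and starts loading of the helicase, differed in size of change. Orc1 (arm 2R), the subunit whose ATPase activity ORC needs, stood at 8.78, 8.88 and 9.11 in GFP replicates 1 to 3, at 9.36, 9.93 and 9.66 in Sxl RNAi replicates 1 to 3, and at 9.70 and 9.59 in double knockdown replicates 1 and 2. All 5 knockdown arrays were above all 3 controls. The gene rose by 0.73 ± 0.12 SE after Sxl RNAi (1.66-fold, adjusted p = 0.00519) and by 0.64 ± 0.14 SE in the double knockdown (adjusted p = 0.0385). Orc4 (arm 2R), another ATPase subunit, stood at 8.11, 8.33 and 8.20 in the GFP arrays, at 8.44, 8.72 and 8.54 after Sxl RNAi, and at 8.64 and 8.50 in the double knockdown. The groups did not overlap here either, but the change was smaller (0.35 ± 0.10 SE, adjusted p = 0.0452 after Sxl RNAi; 0.35 ± 0.11 SE, adjusted p = 0.131 in the double knockdown). Orc2 and Orc5, the other ORC subunits measured, did not pass the test, with changes of 0.33 and 0.19 after Sxl RNAi.

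Of the loading factors, dup (arm 2R), the fly Cdt1 that brings MCM to ORC, rose. It read 10.30, 10.81 and 10.57 in the GFP arrays, 11.05, 10.94 and 11.00 after Sxl RNAi, and 11.04 and 11.07 in the double knockdown. The knockdown arrays were close together and above every control, and the controls themselves spread more widely. The change was 0.44 ± 0.09 SE (adjusted p = 0.0123) after Sxl RNAi and 0.57 ± 0.10 SE (adjusted p = 0.0168) in the double knockdown. Cdc6, the ATPase that works with ORC in loading, had changes of 0.23 and 0.25 (adjusted p = 0.268 and 0.403).

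Of the MCM helicase subunits, 5 of 5 measured subunits rose in both comparisons with GFP, where 1.72% of all genes did. For each of the 5, every knockdown array lay above every control. All Sxl RNAi arrays lay above all GFP arrays for 5.72% of all genes, and both double knockdown arrays did for 11.7%. Mcm6 (X) read 10.39, 10.49 and 10.77 in the GFP arrays, 11.08, 11.38 and 11.51 after Sxl RNAi, and 11.18 and 11.32 in the double knockdown. It rose by 0.77 ± 0.09 SE (1.71-fold, adjusted p = 0.000858) and by 0.62 ± 0.10 SE (adjusted p = 0.0128). Mcm3 (X) read 9.92, 9.99 and 10.14 in the GFP arrays, 10.45, 10.85 and 10.82 after Sxl RNAi, and 10.68 and 10.69 in the double knockdown. In both X-linked subunits, the lowest Sxl RNAi value was replicate 1 of control set 2. Mcm3 rose by 0.69 ± 0.09 SE (1.61-fold, adjusted p = 0.00203) and by 0.59 ± 0.11 SE (adjusted p = 0.0173).

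The 3 autosomal MCM subunits, which lie in the same ring as Mcm3 and Mcm6, had smaller fitted changes after Sxl RNAi, a difference that was not tested. The fly Mcm4 gene dpa (arm 2R) read 10.07, 10.36 and 10.30 in the GFP arrays, 10.65, 10.77 and 10.87 after Sxl RNAi, and 10.66 and 10.73 in the double knockdown. Mcm5 (arm 3R) read 10.06, 10.58 and 10.44 in the GFP arrays, 10.78, 10.76 and 10.91 after Sxl RNAi, and 10.81 and 10.87 in the double knockdown. Mcm2 (arm 3R) read 10.51, 10.77 and 10.65 in the GFP arrays, 10.91, 11.17 and 11.10 after Sxl RNAi, and 11.29 and 11.12 in the double knockdown. In all 3 genes GFP replicate 1 was the lowest array. Their changes after Sxl RNAi were 0.52 ± 0.09 SE for dpa, 0.45 ± 0.10 SE for Mcm5 and 0.42 ± 0.10 SE for Mcm2 (adjusted p = 0.00541, 0.0187 and 0.0299). In the double knockdown they were 0.46, 0.53 and 0.56 (adjusted p = 0.0407, 0.0377 and 0.0335), so the median of the 3 was 0.45 and then 0.53.

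Helicase activation factors were divided, with 3 of 7 risen after Sxl RNAi and 2 of 7 in the double knockdown. Across all genes 5.98% and 2.19% rose in these comparisons. The shares were 41% and 9.55% of expressed X genes and 4.99% and 3.06% of expressed autosomal genes. The 3 that rose after Sxl RNAi were the X-linked Cdc45 and Psf3 and the autosomal Sld5, so the counts mix X-linked and autosomal genes. Cdc45 (X), which joins MCM and GINS in the active helicase, read 8.43, 8.18 and 8.70 in the GFP arrays, 8.95, 9.62 and 9.49 after Sxl RNAi, and 9.19 and 9.13 in the double knockdown. Every knockdown array was above every control, and the double knockdown arrays lay below 2 of the 3 Sxl RNAi arrays. The rise was 0.92 ± 0.09 SE after Sxl RNAi (1.89-fold, adjusted p = 0.000562) and 0.56 ± 0.11 SE in the double knockdown (adjusted p = 0.0241). Cdc7 (X), the catalytic subunit of the kinase that acts on MCM, read 10.24, 9.41 and 9.99 in the GFP arrays, 9.97, 10.40 and 10.10 after Sxl RNAi, and 10.18 and 10.01 in the double knockdown. Its groups overlapped, and among the 7 X-linked members it was the only one not called after Sxl RNAi (0.27 ± 0.09 SE, adjusted p = 0.109; double knockdown 0.05 ± 0.11 SE, adjusted p = 0.891).

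GINS is a complex of Psf1, Psf2, Psf3 and Sld5, and Psf3 is its X-linked subunit. Psf3 read 8.54, 8.24 and 8.74 in the GFP arrays, 8.72, 9.44 and 9.32 after Sxl RNAi, and 8.72 and 9.02 in the double knockdown. The Sxl RNAi array of control set 2 lay within the range of the controls but above its own, as did double knockdown replicate 1. Psf3 rose by 0.66 ± 0.10 SE after Sxl RNAi (adjusted p = 0.00298), while its change of 0.19 ± 0.11 SE in the double knockdown did not pass the test (adjusted p = 0.457). Sld5 (arm 3R) read 7.45, 7.47 and 7.63 in the GFP arrays, 7.58, 8.08 and 8.04 after Sxl RNAi, and 8.08 and 8.16 in the double knockdown. It rose by 0.38 ± 0.10 SE (adjusted p = 0.0346) and by 0.51 ± 0.11 SE (adjusted p = 0.0401), with both double knockdown arrays above all controls. Psf1 and Psf2 did not pass the test (0.15 and 0.06 after Sxl RNAi). Both were lower than their control in control set 2, by -0.32 and -0.30, and higher in the other pairs. Mcm10, a replisome factor that is not part of the MCM ring, had changes of 0.15 and 0.21 with neither called.

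At the fork, RPA coats single-stranded DNA, and its large subunit RpA-70 (arm 3R) had the largest fitted change of the 34 members in both comparisons with GFP. It read 10.90, 11.30 and 10.91 in the GFP arrays, 11.79, 12.33 and 12.27 after Sxl RNAi, and 12.37 and 12.29 in the double knockdown. All knockdown arrays were above all controls, and the pair of control set 2 differed least (0.49, against 1.43 and 1.36 in the other pairs). RpA-70 rose by 1.09 ± 0.15 SE after Sxl RNAi (2.13-fold, adjusted p = 0.00249) and by 1.28 ± 0.18 SE in the double knockdown (2.42-fold, adjusted p = 0.0078). Both calls were lost in a limma fit with an intensity trend and a robust prior (adjusted p = 0.0757 and 0.114). RPA3 (X), the small subunit, read 11.66, 10.94 and 11.87 in the GFP arrays, 11.22, 12.12 and 12.25 after Sxl RNAi, and 11.92 and 12.05 in the double knockdown. Both arrays of control set 2 were low, so the groups overlapped, but each Sxl RNAi array exceeded its own control (by 0.46, 0.28 and 0.38). RPA3 rose by 0.38 ± 0.07 SE after Sxl RNAi (adjusted p = 0.00965), and its double knockdown change of 0.20 ± 0.08 SE was not called (adjusted p = 0.254). RPA2, the middle subunit, had changes of 0.27 and 0.26 (adjusted p = 0.112 and 0.269).

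PCNA (arm 2R), the sliding clamp that holds polymerase on DNA, read 12.48, 12.35 and 12.70 in the GFP arrays, 12.50, 13.09 and 13.10 after Sxl RNAi, and 12.92 and 13.09 in the double knockdown. The Sxl RNAi array of control set 2 fell among the controls, and the other knockdown arrays were above them. PCNA rose by 0.38 ± 0.09 SE after Sxl RNAi (adjusted p = 0.0271), and the change of 0.36 ± 0.11 SE in the double knockdown was not called (adjusted p = 0.106). The clamp loader subunits open PCNA around DNA. Of Gnf1, RfC3, RfC4 and RfC38, 0 of 4 were called, with a median of 0.04 after Sxl RNAi and 0.25 in the double knockdown. Fen1, DNAlig1 and tos, which trim, seal and resect DNA ends, had changes of 0.17, 0.25 and 0.37 after Sxl RNAi, and 0 of 3 were called. Among expressed autosomal genes, 4.99% rose after Sxl RNAi and 3.06% in the double knockdown.

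The genes for DNA building blocks, RnrL, dUTPase and Ts, gave 0 calls of 3 in either comparison (medians 0.15 and 0.25). Of expressed autosomal genes, 4.99% and 3.06% rose. Of the CAF-1 subunits, Caf1-180 (X), the large subunit, rose. It read 9.24, 9.58 and 9.31 in the GFP arrays, 10.25, 10.42 and 10.14 after Sxl RNAi, and 10.47 and 10.23 in the double knockdown. The gap between the controls and the 5 knockdown arrays exceeded the spread within either. Its change was 0.89 ± 0.10 SE after Sxl RNAi (1.86-fold, adjusted p = 0.000858) and 1.02 ± 0.12 SE in the double knockdown (2.03-fold, adjusted p = 0.00247). Caf1-105, an autosomal subunit of the complex, had changes of 0.22 and 0.33 (adjusted p = 0.159 and 0.104).

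**Figure D2:**
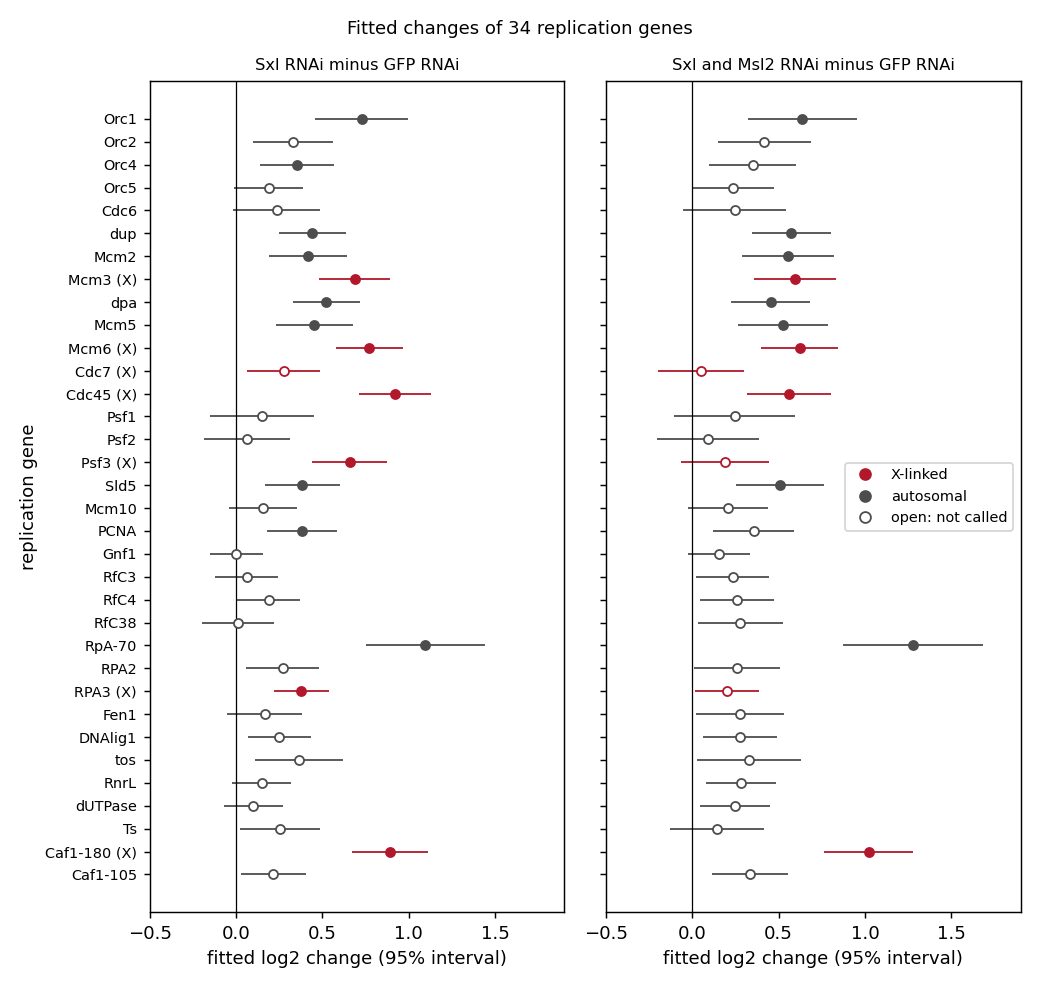
Fitted log2 change of each replication gene (rows) with its 95% interval from limma, for Sxl RNAi minus GFP RNAi (left) and Sxl and Msl2 RNAi minus GFP RNAi (right); red marks X-linked genes, filled points are called at adjusted p under 0.05. All points lie at or right of 0, and RpA-70 is farthest right in both panels at 1.09 and 1.28.

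The 19 members not called in any comparison were Cdc7 and 18 autosomal genes. The 18 ran from 0.00 (Gnf1) to 0.37 (tos) after Sxl RNAi and from 0.09 to 0.42 in the double knockdown. Of the 34 members, 26 were higher in all 3 Sxl RNAi pairs, namely all 7 X-linked and 19 of 27 autosomal genes. The other 8 (Psf1, Psf2, Gnf1, RfC3, RfC38, Fen1, dUTPase and Ts) were lower in at least 1 pair. In the double knockdown 32 of 34 were higher in both pairs, and the exceptions were Cdc6 and Cdc7. Of 5991 expressed genes, 3061, 2720 and 2577 were higher in the single Sxl RNAi pairs of control sets 1 to 3. In the single double knockdown pairs of sets 1 and 3, 3439 and 2658 of them were higher. The members gave 34, 26 and 32 of 34 in the single Sxl RNAi pairs, and 33 and 33 in the single double knockdown pairs. The share of expressed genes higher in all pairs of a comparison is not given here.

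X-linked and autosomal members were set against each other in the same fit. After Sxl RNAi 6 of 7 X-linked members rose, where 41% of the 1047 X genes above the level of 5.24 did, and 9 of 27 autosomal members rose, where 4.99% of the 4927 autosomal genes above that level did. The median change was 0.69 over X-linked and 0.25 over autosomal members, a difference of 0.43. The same medians over the expressed genes were 0.23 on X and -0.05 on autosomes, a difference of 0.28. The difference between X-linked and autosomal members lay in the 3 control pairs at 0.42 to 0.50 (mean 0.46 ± 0.04 SD, n = 3). In the double knockdown 4 of 7 X-linked members rose (expressed X genes 9.55%) and 7 of 27 autosomal members did (expressed autosomal genes 3.06%). The medians were 0.56 and 0.28, a difference of 0.28, with 0.17 and 0.28 in the 2 pairs, whereas the expressed genes differed by 0.07. No p is given for these medians, since the members are few and share arrays.

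The pairs differed in how far the autosomal members moved. Their median difference from GFP after Sxl RNAi was 0.50 in control set 1 (27 of 27 above 0), 0.06 in set 2 (19 of 27) and 0.23 in set 3 (25 of 27). The X-linked members gave 0.92, 0.56 and 0.68 in the same pairs, with 7 of 7 above 0 in each. Of 1047 expressed X genes, 864, 903 and 806 were above 0 in these pairs. Of 4927 expressed autosomal genes, 2189, 1810 and 1766 were. In the double knockdown the autosomal median was 0.48 in set 1 and 0.26 in set 3, and the X-linked 0.76 and 0.43. GFP replicate 1, the control of set 1, carried the lowest of the 3 GFP values for 19 of 27 autosomal members, against 45.4% of expressed autosomal genes. The same array served as the control of both knockdown arrays of set 1, so the larger values of that set are not independent of each other. Without GFP replicate 1, 8 members were called after Sxl RNAi, the same number as without Sxl RNAi replicate 2 or 3, and 1 in the double knockdown. The part of the low values of this array in the result was not tested.

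**Figure D3:**
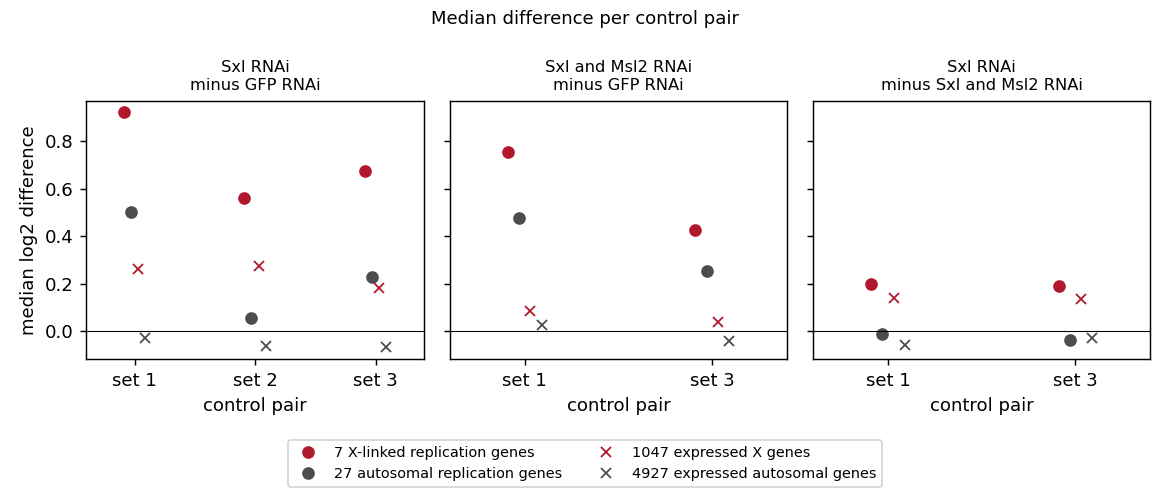
Median log2 difference per control pair (x axis) over X-linked and autosomal replication genes (filled circles) and over expressed X and autosomal genes (crosses), in 3 panels for the 3 comparisons. In each pair of the left and middle panels the X-linked members are highest, and the autosomal members lie above the expressed autosomal genes, by least in set 2 (0.06 against -0.06).

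Setting the Sxl RNAi arrays against the double knockdown asks which changes differ when Msl2 is targeted as well. On double knockdown replicate 2, however, Sxl lay at 7.37, above every control (6.99 to 7.20). The limma change of Sxl in this contrast was -0.47 (adjusted p = 0.442). Targeting of Msl2 and a difference in Sxl depletion cannot be told apart here. Of the 34 members 0 were called in either direction (0.743% of all genes were higher and 0.0334% lower in Sxl RNAi; expressed X genes higher 6.4%, expressed autosomal genes higher 0.406%). At an unadjusted p under 0.05 there were 3 members, Cdc45, Psf3 and RfC38, and 10.7% of all genes, and the limma fit with an intensity trend and a robust prior called 1, Psf3 (adjusted p = 0.0263). The 95% interval of a member, not adjusted for the number of genes, reached a median of 0.25 to either side of its estimate. For 0 of 34 members did all Sxl RNAi arrays lie above both double knockdown arrays, and for 2 did all lie below, against 8.88% and 9.25% of all genes.

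None of the 7 X-linked members was called in this contrast, and differences between them were not tested. Psf3 was 0.47 higher after Sxl RNAi than in the double knockdown (95% interval 0.21 to 0.72, adjusted p = 0.132) and Cdc45 was 0.36 higher (0.11 to 0.61, adjusted p = 0.244). Cdc7 (0.22, -0.03 to 0.47), RPA3 (0.18, -0.01 to 0.36), Mcm6 (0.15, -0.07 to 0.38) and Mcm3 (0.09, -0.15 to 0.33) had intervals that included 0. Those 6 genes were higher in both pairs. Caf1-180 was -0.13 (-0.39 to 0.13), and lower in both pairs. Among autosomal members 7 of 27 were higher in both pairs, 11 were lower in both and 9 were mixed. In the single pairs of sets 1 and 3, 787 and 799 of 1047 expressed X genes were higher. The same counts were 1673 and 2074 of 4927 expressed autosomal genes. In these single pairs, 6 and 6 of 7 X-linked members and 13 and 10 of 27 autosomal members were higher. RpA-70 stood at -0.18 (-0.59 to 0.22), and RfC38, a clamp loader subunit, at -0.27 (-0.51 to -0.02, adjusted p = 0.422). The medians were 0.18 over X-linked and -0.07 over autosomal members, a difference of 0.25 (0.21 and 0.23 in the pairs), beside 0.19 over expressed genes. This difference became 0.17 without the control set in the model and 0.10 with the title number as block. RPA3 then stood at -0.12 and -0.31, and with the title number Mcm3 and Mcm6 stood at -0.04 and -0.03.

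**Figure D4:**
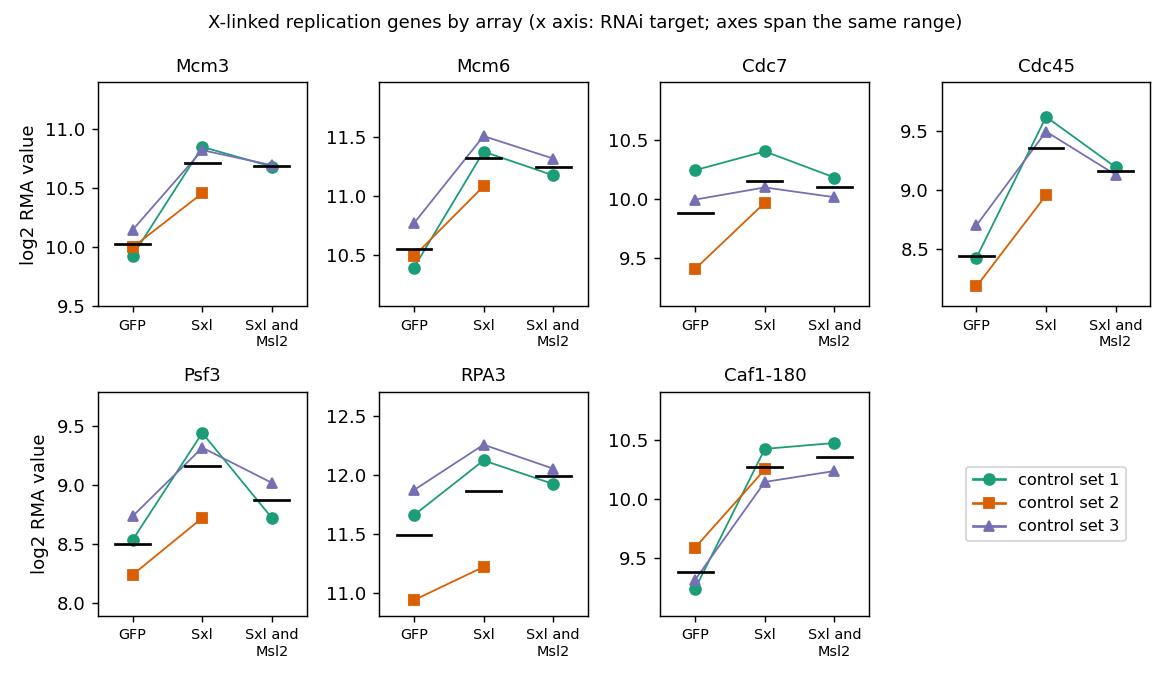
Log2 RMA value on each array (y axis; every panel spans the same range) for the 7 X-linked replication genes by RNAi target (x axis); lines join arrays of a control set and black bars are group means. Psf3 and Cdc45 are lower in the double knockdown than after Sxl RNAi in both sets that hold the 3 treatments, and Caf1-180 is slightly higher.

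Other replication genes, taken from a list of 33 not used to choose the members, had 24 measured. Of these, 12 rose and 0 fell after Sxl RNAi (median 0.35), beside 5.98% risen among all genes, and 7 rose and 0 fell in the double knockdown (median 0.42), beside 2.19%. The largest changes after Sxl RNAi were those of Dna2 (X, a nuclease and helicase, 0.67, adjusted p = 0.00902), the primase subunits DNApol-alpha60 (0.64, adjusted p = 0.00867) and DNApol-alpha50 (0.63, adjusted p = 0.00671), and cutlet, the fly Ctf18 of an alternative clamp loader (0.60, adjusted p = 0.0181). These 4 also rose in the double knockdown. Of its 20 autosomal genes, 10 rose after Sxl RNAi, beside 4.99% of expressed autosomal genes.

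Lists of neighbouring processes were read in the same fit, where 5.98% of all genes, 41% of expressed X genes and 4.99% of expressed autosomal genes rose after Sxl RNAi. Of 12 measured checkpoint and licensing control genes, 3 rose and 0 fell after Sxl RNAi: Roc1a (X, a ubiquitin ligase subunit, 0.83), fzr (X, an activator of the anaphase-promoting complex, 0.46) and l(2)dtl (the Cdt2 that directs Cdt1 to destruction in S phase, 0.38). Of the 9 autosomal genes of this list 1 rose. Roc1a was also higher after Sxl RNAi than in the double knockdown (0.66, adjusted p = 0.012). Of 11 further nucleotide supply genes, 4 rose and 1 fell. They were the purine enzyme Paics (X, 1.11), the deoxynucleoside kinase dnk (0.72), r (X, the first pyrimidine enzyme, 0.72) and ras (X, IMP dehydrogenase, 0.32), and the purine enzyme Gart fell by 0.45. Of 17 listed regulators of G1 and E2F activity 14 were measured, without E2f1, dap and stg. Of these 14, 3 rose and 1 fell after Sxl RNAi. Rbf (X), the fly retinoblastoma protein that holds E2F in check, fell by 0.80 ± 0.11 SE (adjusted p = 0.00242) and by 0.65 ± 0.13 SE in the double knockdown (adjusted p = 0.0265). The genes that rose were lin-52 (X, a subunit of the dREAM repressor complex, 0.77), Dp (the E2F dimer partner, 0.37) and Cdk2 (the kinase of cyclin E, 0.27). In the double knockdown lin-52, Dp and Cdk2 also rose, by 0.48, 0.47 and 0.50 (adjusted p = 0.0334, 0.0193 and 0.0171). The part of these regulators in the changes of the replication genes was not tested. Of 24 listed mitosis genes 18 were measured, without polo, stg, CycA, Cdk1, BubR1 and aurA. Among the 18, Ndc80 alone (X, a kinetochore subunit, 0.30) rose after Sxl RNAi. In the double knockdown glu alone rose (a condensin subunit, 0.36), where 2.19% of all genes and 3.06% of expressed autosomal genes did. The medians of the 18 were 0.05 and 0.21. Of the 18 changes, 13 were above 0 after Sxl RNAi and 17 in the double knockdown. Both double knockdown arrays lay above all GFP arrays for 10 of 18, beside 11.7% of all genes. All Sxl RNAi arrays lay below both double knockdown arrays for 10 of 18, beside 9.25%.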

How the data were processed

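Total RNA (6 µg per array) of Kc cells was labelled and hybridised to 8 Drosophila arrays. The deposited log2 values were made by the authors with RMA, named in the submitters' processing notes, and no source used here gives its version or options. Normalization across arrays hides a change in total RNA per cell, and precision is limited by the number of arrays. Of 18952 probe sets, 183 were array controls, 13647 had 1 symbol, 402 several and 4720 none. Probe sets with 1 symbol gave 11983 genes (1094 with more than 1 probe set, the highest mean used), of which 11894 matched the RefSeq gene table (Release 6 plus ISO1 MT), used for names and chromosome arms only.

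limma 3.58.1 (lmFit, eBayes; R 4.3.3) was fitted over all 8 arrays with treatment and control set, leaving 3 residual degrees of freedom plus 6.53 prior ones, with Benjamini-Hochberg adjustment over all genes and a threshold of 0.05. The same model was also run on simulated data as a check of the code alone, which does not bear on whether the calls hold. The median residual SD was 0.147 for the members and 0.0868 for expressed genes. The labels give the control pairing. Deviations from group means within a control set correlated at 0.376 to 0.893 (7 pairs). Those between Sxl RNAi and GFP arrays of the same title number but another set lay at -0.738 to -0.626. These last pairs all hold an array of control set 2. GFP replicate 1 with Sxl RNAi replicate 3 gave 0.157, and GFP replicate 3 with Sxl RNAi replicate 2 gave 0.256. Deviations within a group cancel out, so these correlations cannot by themselves decide the pairing.

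The members, lists and tests were chosen with earlier results of these data known. Every X-linked member, every called member and up to 4 called genes of each other list (by size of change after Sxl RNAi) are named with values; other genes named were chosen after their values were seen. CycE was in 2 of the lists, as were dap and stg. A planned search of promoters for E2F and DREF motifs was not run, since promoter sequences were not used here. Alternatives were no control set, the title number as block, no control set 2, a filter on dim genes, quantile normalization, centring on autosomal genes, an intensity trend with a robust prior, the mean of a gene's probe sets, and leaving out each array. Each member had a single probe set, so the mean of probe sets could not move its fitted change. Leaving out GFP replicate 2 or Sxl RNAi replicate 1 leaves a lone array in control set 2. Each is therefore the same check as no control set 2.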

Additional observations from a re-analysis of the deposited data

How the results depend on the processing

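No called change of a named member turned its direction under any alternative. Without the control set in the model (no replicate block), or with the title number as replicate block in its place, 0 members were called against GFP in both knockdowns, beside 15 and 11. Unadjusted p under 0.05 was then reached by 15 and 17 members without the block (8.88% and 6.97% of all genes) and by 18 and 20 with the title number (9% and 9.91%). The trended robust fit lost the calls of RpA-70 against GFP. All genes called without the block were 30 after Sxl RNAi and 1 in the double knockdown. The difference between X-linked and autosomal medians in the double knockdown became 0.38 with the title number. In Sxl RNAi against the double knockdown it became 0.17 without the block, 0.10 with the title number, 0.26 with quantile normalization and 0.22 without control set 2, beside 0.25, and the trended robust fit called 1 member there. When each array was left out in turn, the members called ranged from 8 to 18 after Sxl RNAi, from 0 to 13 in the double knockdown and from 0 to 0 between the knockdowns. For Sxl RNAi the low of 8 came on leaving out any of GFP replicate 1, Sxl RNAi replicate 2 and replicate 3. Orc1, Mcm3, dpa, Mcm6, Cdc45, Psf3, RpA-70 and Caf1-180 stayed called there without any single array, and 0 did so in the double knockdown. The X-linked minus autosomal difference then ranged from 0.42 to 0.47, from 0.23 to 0.29 and from 0.22 to 0.30 in the 3 comparisons.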
